A study of Mus musculus with 15 samples.

Results

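The 9 genes described here make, move and sense 2 groups of sphingolipids, sphingomyelin and sphingosine 1-phosphate. They are the sphingomyelin synthases Sgms1 and Sgms2, the sphingosine 1-phosphate exporters Mfsd2b and Spns2, the sphingosine kinases Sphk1 and Sphk2, the lyase Sgpl1 and the receptors S1pr1 and S1pr2. All probe sets whose only gene symbol was 1 of these 9 were taken, which gave 9 of the 17097 genes and 16 of the 45037 probe sets tested. Sgms2 was chosen for its low and Mfsd2b for its high signal in HOXB4 cells at 20 weeks. Values of these 2 genes that involve a 20-week array are therefore a description without a test.

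Sphingomyelin is a membrane lipid that sphingomyelin synthases build from ceramide in the Golgi and at the plasma membrane. Ceramide can instead be cleaved to sphingosine, which a kinase phosphorylates to sphingosine 1-phosphate, and a lyase then degrades this product irreversibly. Exporters carry sphingosine 1-phosphate out of red cells, platelets and endothelial cells into blood and lymph, where it acts on G protein-coupled receptors that guide blood cells, progenitors among them, out of tissues.

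The cells were mouse LSK cells, the lineage-negative, Sca-1-positive, Kit-positive fraction of marrow in which blood stem cells and early progenitors lie. Marrow of female C57Bl/6 mice treated with 5-FU, a drug that kills dividing cells, received a retrovirus made in GPE+86-derived producer cells. The virus was either MSCV-HOXB4-ires-YFP, which forces expression of the homeobox factor HOXB4, or MSCV-ires-GFP, which carries the marker alone. Both went into lethally irradiated recipients. Cells that expressed the marker were sorted later, without culture, so each HOXB4 sample also carries YFP where its control carries GFP. The 5 groups, of 3 arrays each, were HOXB4 at 6, 12 and 20 weeks and GFP at 12 and 20 weeks. The sample titles give 20 weeks as the last time and the series text 24 weeks, and the titles were followed. GFP cells at 6 weeks were not analysed here. The labels give neither the age of the mice nor whether the 3 arrays of a group came from separate mice, so p-values reflect only how far these arrays varied, and that variation may be technical.

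Values are log2 signals after RMA, a method that corrects background, equalises the arrays and combines the probes of a probe set, so a step of 1 is a doubling of signal. Levels of different genes are not compared, because each probe set binds with its own strength, and a low value may be background. Arrays of the same group correlated at 0.967 to 0.994 and arrays of different groups at 0.947 to 0.987. Replicate 1 of HOXB4 at 6 weeks stood apart in the gap between the 3' and 5' Gapdh control probe sets, a sign of RNA quality, with 3.76 against 0.809 to 2.02 elsewhere. Of the genes that define the sort, Kit lay between 7.89 and 8.79 on all arrays, and Ly6a, which encodes Sca-1, was not analysed here. Kit was lower in HOXB4 cells (7.94 to 8.14) than in GFP cells (8.62 to 8.79) at 12 weeks (limma adjusted p = 0.0173). So was the progenitor marker Cd34, with 9.12 to 9.54 against 10.06 to 10.24 (adjusted p = 0.00918). Kit, Cd34, Slamf1 and Flt3 were the 4 measured markers of the sorted cells. Slamf1 had the opposite order at 12 weeks without a call, its GFP arrays reading 5.47 to 5.84 and its HOXB4 arrays 7.09 to 7.55. At 20 weeks 2 of the 4 were called higher in limma, beside 3.34% of all genes, and 0 lower (1 lower unadjusted), beside 4.67%. Flt3 then read 7.40 to 9.08 on the GFP arrays and 9.41 to 9.49 on the HOXB4 arrays. Slamf1 overlapped, with 4.84 to 5.17 on the GFP arrays and 5.15 to 8.32 on the HOXB4 arrays. Of 6 T cell markers 0 were called in limma between vectors at either time (1 unadjusted, higher, at each), and their mean signals lay between the percentiles 28.4 and 57.7 of all probe sets.

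Differences were tested with limma over all 45037 probe sets and called at a Benjamini-Hochberg adjusted p under 0.05. At 12 weeks, Mfsd2b was higher and Spns2 lower in HOXB4 than in GFP cells. These were the 2 of 16 member probe sets called, beside 3.26% of all probe sets. The 16 include Sgms2 and Mfsd2b, chosen for a difference between these vectors at 20 weeks, so the count gives no result about the set. At 20 weeks both probe sets of Sgpl1 were lower, which were the 2 of 12 tested member probe sets called, beside 6.75% of all. The difference between the HOXB4 effects at both times was called for 0 of 12 member probe sets (1 at an unadjusted p under 0.05), beside 0.289% of all, so no member tested was shown to respond differently at 20 than at 12 weeks. Within a vector over time, 1 member probe set was called, for Sphk2 between 6 and 20 weeks of HOXB4. The smallest p that an exact permutation test can give for 3 arrays against 3 is 0.1, and the adjusted p-values depend on the model.

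Sgms2, the sphingomyelin synthase that works largely at the plasma membrane, was low on every HOXB4 array and higher in GFP cells. Its brighter probe set (1428663_PM_at) read 7.59, 7.74 and 6.27 in GFP cells and 3.45, 2.96 and 3.15 in HOXB4 cells at 20 weeks. At 12 weeks it read 4.31, 3.96 and 5.57 in GFP cells and 3.04, 3.06 and 3.35 in HOXB4 cells. At 6 weeks the HOXB4 arrays read 3.31, 3.77 and 3.07. All 9 HOXB4 arrays thus lay below all 6 GFP arrays, and the 3 HOXB4 groups overlapped one another. In HOXB4 cells, between 6.14% and 19.0% of the probe sets on the same array were dimmer than this one, so its value there may be background. On the GFP arrays at 20 weeks 66.4% to 83.8% were dimmer.

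The difference at 20 weeks, on which Sgms2 was chosen, was -4.01 ± 0.39 (SE of the model), a 16.1-fold lower signal in HOXB4 cells, which is a lower limit if the HOXB4 values are background. At 12 weeks, which the choice did not use, the difference was -1.46 ± 0.39 with a 95% interval from -2.31 to -0.62. It missed the threshold (limma adjusted p = 0.0591) although the arrays of both groups were separate. Without replicate 2 of GFP at 12 weeks it passed, at -1.79 (adjusted p = 0.0472), and without replicate 3 it was -0.98 (adjusted p = 0.203). It also passed in a fit on those 2 groups alone (adjusted p = 0.0269) and with array weights (0.00889), where more of all probe sets were called too. Within GFP cells Sgms2 was 2.58 higher at 20 than at 12 weeks, as a description. This comparison and that of both vectors at 20 weeks share the GFP arrays at 20 weeks.

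The other Sgms2 probe set (1429029_PM_at) read 5.50, 6.06 and 4.72 in GFP and 3.84, 3.56 and 3.52 in HOXB4 cells at 20 weeks, a difference of -1.78. It read 4.13, 4.42 and 4.12 in GFP and 3.83, 3.87 and 3.59 in HOXB4 cells at 12 weeks. Both probe sets put the groups in the order GFP at 20 weeks, GFP at 12 weeks, then the 3 HOXB4 groups. The 12-week difference of -0.46 ± 0.25 on the second probe set was not called (limma adjusted p = 0.353).

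**Figure D1:**
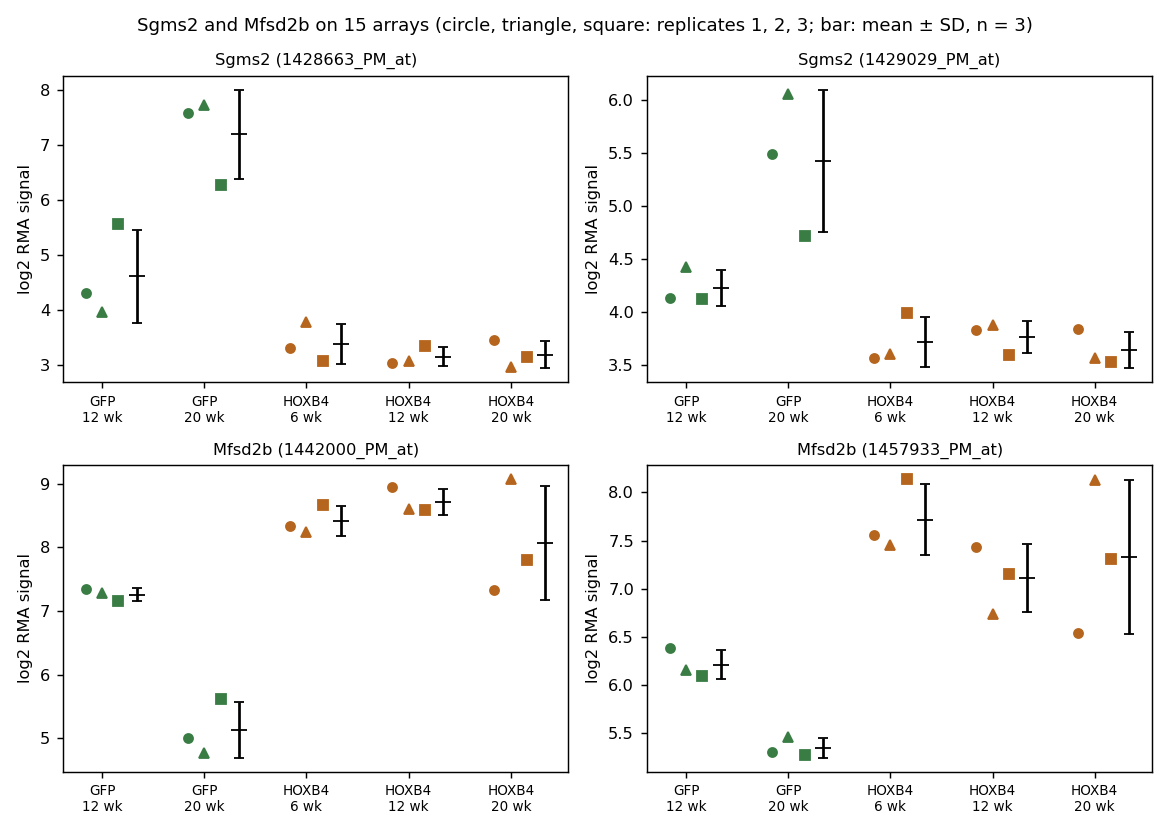
Log2 RMA signal (vertical axes) of both probe sets of Sgms2 and of Mfsd2b in the 5 groups (horizontal axes); each point is an array and the bar beside it the mean ± SD (n = 3). All HOXB4 arrays lie below all GFP arrays for Sgms2, and GFP at 20 weeks is the lowest group for Mfsd2b.

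Sgms1, the Golgi enzyme that makes most cellular sphingomyelin, has 3 probe sets and none was called in any comparison. The brightest (1426575_PM_at) read 7.005, 7.10 and 7.13 in GFP and 7.32, 7.14 and 7.23 in HOXB4 cells at 12 weeks. At 20 weeks it read 7.07, 6.87 and 6.95 in GFP and 6.82, 7.99 and 7.64 in HOXB4 cells, and at 6 weeks of HOXB4 6.89, 6.85 and 6.95. HOXB4 replicate 1 at 20 weeks thus lay below all GFP arrays of that time, and replicates 2 and 3 lay above them. The difference at 20 weeks was 0.52 ± 0.21 (interval 0.080 to 0.96, limma adjusted p = 0.162). Without that replicate 1 it was 0.85 (adjusted p = 0.0012), and without replicate 2 it was 0.27 (adjusted p = 0.458). The other probe sets differed by 0.45 and 0.34 at 20 weeks, and the latter by -0.098 without HOXB4 replicate 2.

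Mfsd2b, the transporter that releases sphingosine 1-phosphate from red cells and platelets, had the opposite order to Sgms2. Its brighter probe set (1442000_PM_at) read 7.34, 7.29 and 7.15 in GFP and 8.95, 8.61 and 8.58 in HOXB4 cells at 12 weeks. At 20 weeks it read 5.00, 4.77 and 5.62 in GFP and 7.33, 9.07 and 7.81 in HOXB4 cells. The HOXB4 arrays at 6 weeks read 8.33, 8.24 and 8.68. The GFP arrays at 20 weeks were the lowest, and the 3 HOXB4 groups overlapped one another. HOXB4 replicate 1 at 20 weeks (7.33) lay within the range of GFP at 12 weeks.

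The brighter Mfsd2b signal at 12 weeks rose from GFP to HOXB4 cells by 1.46 ± 0.33, or 2.74-fold (limma adjusted p = 0.0295). Leaving out any 1 of the 6 arrays of that comparison kept a difference of 1.34 to 1.52 but ended the call (adjusted p 0.0705 to 0.114). The described difference at 20 weeks was 2.94 ± 0.33, or 2.44 without HOXB4 replicate 2. Between 12 and 20 weeks of GFP the signal was lower by a described -2.13. Between 6 and 12 weeks of HOXB4 the difference was 0.30 ± 0.33 (interval -0.41 to 1.01, adjusted p = 0.708).

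The dimmer Mfsd2b probe set (1457933_PM_at) read 6.38, 6.15 and 6.09 in GFP and 7.44, 6.74 and 7.15 in HOXB4 cells at 12 weeks, without overlap. Its difference of 0.90 ± 0.31 was not called (limma adjusted p = 0.126). At 20 weeks it read 5.30, 5.45 and 5.26 in GFP and 6.54, 8.13 and 7.31 in HOXB4 cells, a difference of 1.99. It differed from the brighter one in putting the 6-week arrays (7.56, 7.45 and 8.14) above the 12-week HOXB4 arrays, by 0.61 ± 0.31 (adjusted p = 0.318).

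Spns2, the exporter that supplies sphingosine 1-phosphate to lymph and plasma from endothelium, was measured by 1 probe set (1451601_PM_a_at). It read 8.92, 9.11 and 9.03 in GFP and 7.74, 8.25 and 8.08 in HOXB4 cells at 12 weeks. The groups were separate and the signal fell by 0.998 ± 0.22 in HOXB4 relative to GFP cells, or 1.997-fold (limma adjusted p = 0.0261). Leaving out any 1 of the 6 arrays ended this call too (adjusted p 0.0534 to 0.114), as did quantile normalization (adjusted p = 0.0635). At 20 weeks Spns2 read 8.63, 8.61 and 8.18 in GFP and 7.78, 8.07 and 8.25 in HOXB4 cells. These arrays overlapped, with a difference of -0.44 ± 0.22 (interval -0.91 to 0.032, adjusted p = 0.285). The HOXB4 arrays at 6 weeks read 8.14, 7.38 and 8.34, and the HOXB4 groups overlapped one another.

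The promoter windows of the exporters are shown because both exporters were called at 12 weeks, in opposite directions. They are RefSeq windows of GRCm38.p6, from 250 bases before to 50 bases after the gene start, 5′ to 3′ on the strand of the gene. The capitals mark a match to AGATAA, the motif of GATA factors, on either strand. Mfsd2b is at chr12:4874310-4874609 and Spns2 at chr11:72474978-72475277, both on the minus strand.
Mfsd2b: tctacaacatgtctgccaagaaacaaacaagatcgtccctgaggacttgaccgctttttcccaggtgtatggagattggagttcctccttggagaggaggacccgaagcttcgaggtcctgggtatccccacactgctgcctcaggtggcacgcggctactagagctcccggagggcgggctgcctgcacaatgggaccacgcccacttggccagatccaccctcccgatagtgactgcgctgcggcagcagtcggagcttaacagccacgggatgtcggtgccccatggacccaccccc
Spns2: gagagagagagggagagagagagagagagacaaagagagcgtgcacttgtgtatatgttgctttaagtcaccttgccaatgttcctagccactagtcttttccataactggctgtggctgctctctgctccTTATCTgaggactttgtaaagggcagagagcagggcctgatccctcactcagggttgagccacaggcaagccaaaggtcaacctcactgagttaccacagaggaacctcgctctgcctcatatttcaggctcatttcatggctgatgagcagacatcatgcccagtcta
The letters searched on both strands were AGATAA for GATA factors, TGATNNAT for HOX-PBX, TTGCNNAA for C/EBP, AGGAAG for ETS factors and CACGTG as an E-box. Among all 32851 RefSeq windows 11.2%, 8.85%, 10.8%, 35.4% and 7.15% held them, in that order. The Mfsd2b window held none of these letters, and the Spns2 window held 1, the GATA match with its first base at -119 from the start. Windows were present for 8 of the 9 genes. A match is a description of the sequence and not a bound site.

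The kinases Sphk1 and Sphk2, which make sphingosine 1-phosphate, were called in no comparison between vectors. The brighter Sphk1 probe set (1451596_PM_a_at) read 5.88, 5.93 and 5.76 in GFP and 6.06, 5.69 and 5.77 in HOXB4 cells at 12 weeks. It read 5.39, 5.06 and 5.59 in GFP and 5.45, 5.23 and 5.26 in HOXB4 cells at 20 weeks. Both vectors were lower at 20 than at 12 weeks without overlap, by -0.52 ± 0.16 in GFP (limma adjusted p = 0.165) and -0.53 ± 0.16 in HOXB4 cells (adjusted p = 0.188), and neither was called. The vectors differed by -0.021 at 12 weeks (interval -0.37 to 0.33) and by -0.030 at 20 weeks (interval -0.38 to 0.32). The other Sphk1 probe set (1420566_PM_at) stayed between 3.98 and 4.64 on all arrays.

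Sphk2, the kinase found largely in the nucleus and mitochondria, rose between 6 and 20 weeks of HOXB4 on 1 of its 2 probe sets. That probe set (1426230_PM_at) read 5.59, 5.83 and 5.57 at 6 weeks, 6.42, 6.14 and 6.38 at 12 weeks and 6.27, 6.65 and 6.78 at 20 weeks. The 6-week arrays lay below all others, the GFP arrays (6.05 to 6.66) included. The rise from 6 to 20 weeks was 0.90 ± 0.18, or 1.87-fold (limma adjusted p = 0.0152), and was the only member call of 12 tested, beside 3.77% of all probe sets. It was not called in a fit on those 2 groups alone (adjusted p = 0.159) or with array weights (0.0827). The Gapdh gap was 3.76, 1.68 and 1.71 on the 6-week arrays and 1.21, 1.39 and 2.02 at 20 weeks of HOXB4. The part of RNA quality in this rise was not tested. From 6 to 12 weeks the difference was 0.65 ± 0.18 (adjusted p = 0.0609), and 0.73 without HOXB4 replicate 2 at 6 weeks (adjusted p = 0.0472).

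The brighter Sphk2 probe set (1417431_PM_a_at) did not share this rise. It read 6.88, 6.78 and 6.04 at 6 weeks and 6.90, 6.62 and 6.90 at 20 weeks of HOXB4, a difference of 0.24 ± 0.20 (limma adjusted p = 0.553) that was -0.021 without replicate 3 at 6 weeks. The difference between vectors was -0.28 at 12 weeks (interval -0.71 to 0.16) and -0.34 at 20 weeks (interval -0.78 to 0.092).

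**Figure D2:**
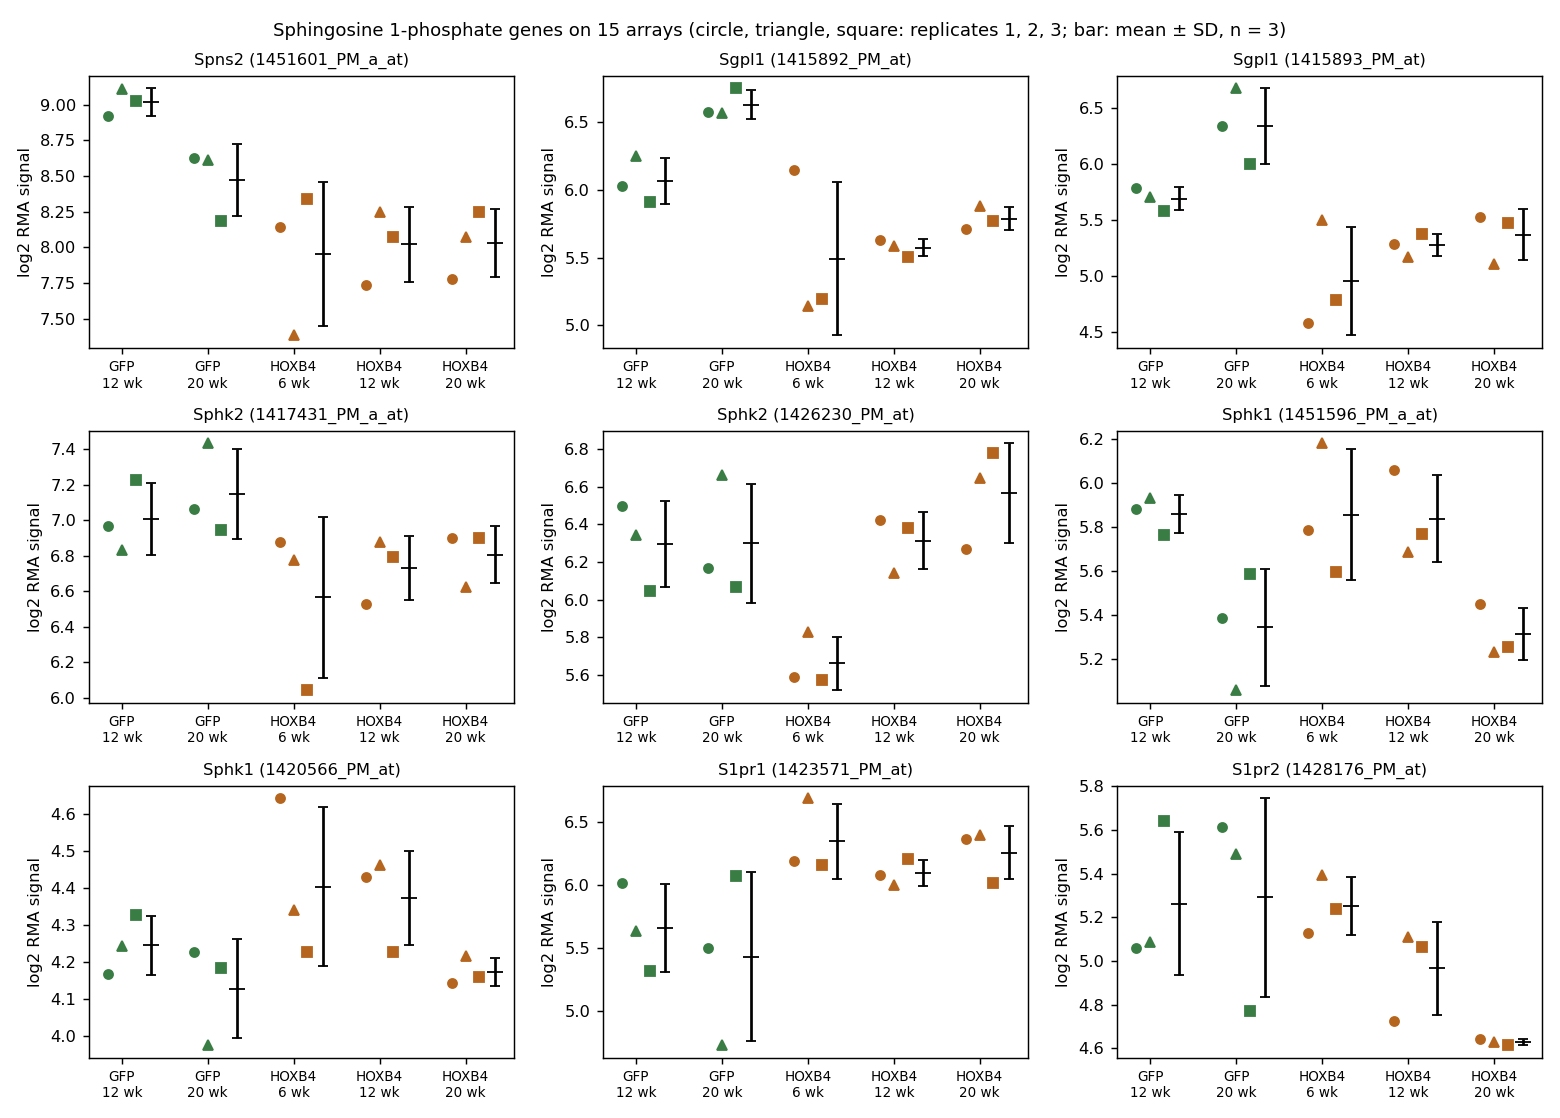
Log2 RMA signal (vertical axes, each on its own scale) of the 9 probe sets of Spns2, Sgpl1, Sphk2, Sphk1, S1pr1 and S1pr2 in the 5 groups; points are arrays and bars the mean ± SD (n = 3). Both Sgpl1 probe sets are highest in GFP at 20 weeks, and Spns2 is highest in GFP at 12 weeks.

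Sgpl1, the lyase that ends the pathway by cleaving sphingosine 1-phosphate, was lower in HOXB4 cells at 20 weeks on both of its probe sets. The first (1415892_PM_at) read 6.57, 6.56 and 6.75 in GFP and 5.71, 5.88 and 5.77 in HOXB4 cells. The second (1415893_PM_at) read 6.33, 6.67 and 5.998 in GFP and 5.52, 5.11 and 5.47 in HOXB4 cells. Arrays of both vectors were separate on either probe set. The decreases were -0.84 ± 0.20, or 1.79-fold (limma adjusted p = 0.0218), and -0.97 ± 0.21, or 1.96-fold (adjusted p = 0.0133). Both probe sets report 1 gene, so these are 1 finding and not 2.

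The first Sgpl1 probe set lost its call without GFP replicate 1 (adjusted p = 0.0604), 2 (0.0634) or 3 (0.0618), or without HOXB4 replicate 1 (0.0565) or 3 (0.0607), in limma at 20 weeks. The second lost it without GFP replicate 2 (0.0784) or HOXB4 replicate 2 (0.0521), and in a fit on those 2 groups alone (0.0527). The direction was the same each time.

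At 12 weeks the Sgpl1 probe sets read 6.03, 6.24 and 5.91, and 5.78, 5.70 and 5.58, in GFP cells. In HOXB4 cells they read 5.63, 5.59 and 5.50, and 5.28, 5.17 and 5.37. The groups were again separate, but the differences of -0.49 ± 0.20 (limma adjusted p = 0.215) and -0.41 ± 0.21 (adjusted p = 0.326) were not called. Both probe sets were higher in GFP cells at 20 than at 12 weeks without overlap, by 0.57 ± 0.20 (adjusted p = 0.232) and 0.65 ± 0.21 (adjusted p = 0.184), which was not called either. At 6 weeks of HOXB4 they read 6.15, 5.14 and 5.19, and 4.57, 5.50 and 4.78. The probe sets thus disagreed on which 6-week array was high, replicate 1 on the first and replicate 2 on the second.

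S1pr1, the receptor through which blood cells follow sphingosine 1-phosphate out of tissues, read 5.50, 4.72 and 6.07 in GFP and 6.36, 6.396 and 6.01 in HOXB4 cells at 20 weeks. GFP replicate 3 lay above HOXB4 replicate 3, so the groups overlapped. The difference of 0.83 ± 0.27 was not called (limma adjusted p = 0.0889), and it was 1.15 without GFP replicate 3 (adjusted p = 0.0115) and 0.48 without GFP replicate 2 (adjusted p = 0.354). At 12 weeks S1pr1 read 6.01, 5.64 and 5.31 in GFP and 6.08, 6.00 and 6.20 in HOXB4 cells, a difference of 0.44 ± 0.27 (adjusted p = 0.422). The HOXB4 arrays at 6 weeks read 6.19, 6.69 and 6.16.

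S1pr2, a receptor that opposes such migration in several cell types, read 5.61, 5.49 and 4.77 in GFP and 4.64, 4.63 and 4.61 in HOXB4 cells at 20 weeks. The groups were separate, with GFP replicate 3 close to the HOXB4 arrays. The difference was -0.66 ± 0.20 (limma adjusted p = 0.07), and it was -0.92 without that array (adjusted p = 0.00514) and -0.50 without GFP replicate 1 (adjusted p = 0.241). At 12 weeks S1pr2 read 5.06, 5.09 and 5.64 in GFP and 4.72, 5.11 and 5.06 in HOXB4 cells, a difference of -0.30 ± 0.20 (adjusted p = 0.484). In HOXB4 cells it read 5.13, 5.39 and 5.24 at 6 weeks, and each of the 6-, 12- and 20-week groups lay below the one before without overlap. The difference from 6 to 20 weeks was -0.63 ± 0.20 (adjusted p = 0.102).

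**Figure D3:**
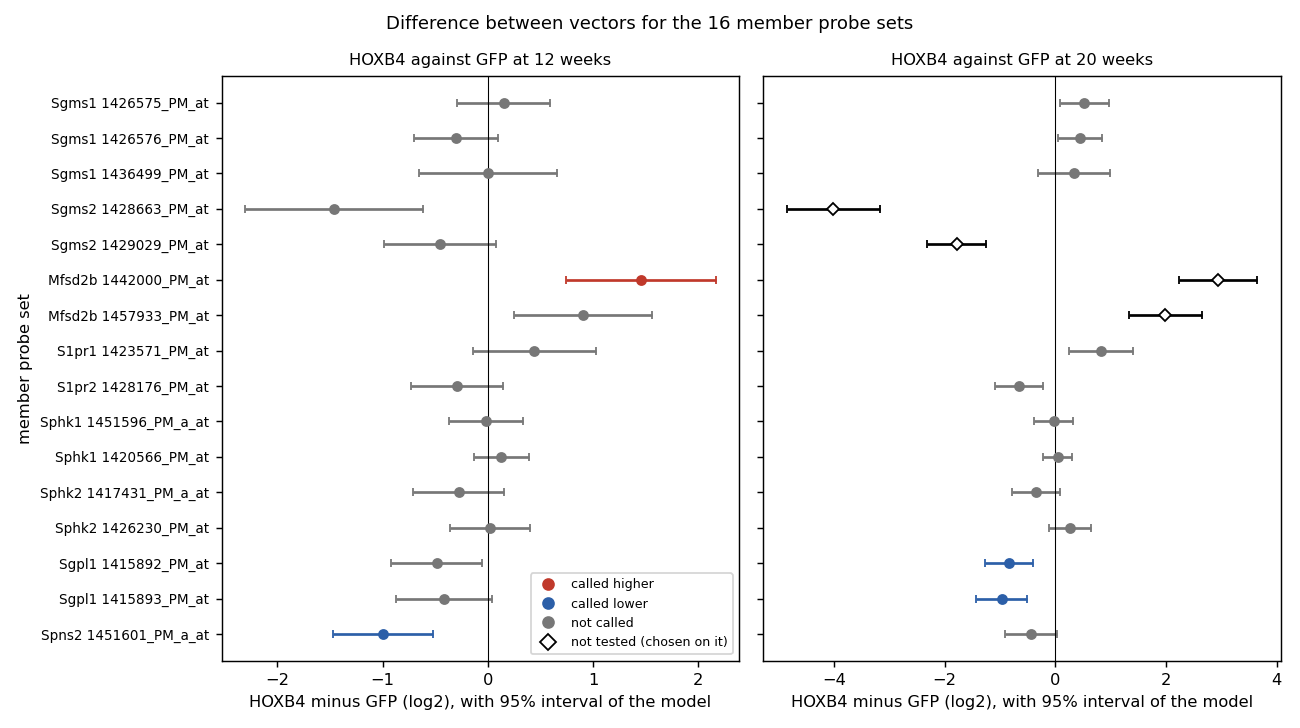
HOXB4 minus GFP difference (horizontal axes, log2, with the 95% interval of the model) for the 16 member probe sets (vertical axis) at 12 and at 20 weeks. Mfsd2b and Spns2 lie on opposite sides of 0 at 12 weeks, and open diamonds mark Sgms2 and Mfsd2b at 20 weeks, on which they were chosen.

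Over the members, 8 of 16 probe sets had separate arrays between vectors at 12 weeks, beside 32.2% of all probe sets. Both probe sets of Sgms2 and both of Mfsd2b were among these 8. They were chosen for a difference between the same vectors at 20 weeks, so the 12-week counts give no result about the members as a set. At 20 weeks 4 of the 12 tested were separate, beside 23.5% of all. The median member difference was -0.15 at 12 weeks (0.0034 over all probe sets) and 0.0070 at 20 weeks (0.035 over all). Between 6 and 12 weeks of HOXB4, 0 of 16 were called (1 at an unadjusted p under 0.05 in limma), beside 3.07% of all. Between 12 and 20 weeks, 0 of 12 were called in HOXB4 cells (2 unadjusted), beside 0.369%, and 0 of 12 in GFP cells (4 unadjusted), beside 1.54%.

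The rest of the pathway was read from 6 lists holding 56 other sphingolipid genes, of which 54 were measured, each by its brightest probe set. At 12 weeks 3 were lower in HOXB4 cells and 0 higher in limma (10 lower and 4 higher at an unadjusted p under 0.05), where 1.93% of all genes were lower and 1.61% higher. At 20 weeks 13 were lower and 1 higher, where 4.67% of all genes were lower and 3.34% higher. The median over the 54 was -0.11 at 12 weeks (-0.016 over all genes) and -0.16 at 20 weeks (0.022 over all genes). The 13 genes lower at 20 weeks also had negative differences at 12 weeks, and the 3 of 12 weeks were among them. How often this held over all genes was not computed, so it gives no result about these genes. The difference between both effects was called for 0 of 54 in limma (8 more negative and 1 more positive at 20 weeks at an unadjusted p under 0.05), beside 0.386% of all genes.

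Cers6, a synthase that joins shorter fatty acids to the sphingoid base to form ceramide, was among the 3. It read 7.38, 7.34 and 7.23 in GFP and 5.94, 5.86 and 5.88 in HOXB4 cells at 12 weeks, and 8.44, 8.32 and 7.89 against 6.07, 6.49 and 6.34 at 20 weeks. It was lower by a log2 difference of -1.42 ± 0.16 at 12 weeks (limma adjusted p = 0.000739) and -1.92 ± 0.16 at 20 weeks (adjusted p = 1.16e-05). It also fell between 6 and 12 weeks of HOXB4 by 1.11 (adjusted p = 0.00565), and rose between 12 and 20 weeks of GFP by 0.90 (adjusted p = 0.00938). Cers4, a synthase for longer fatty acids, was the 1 list gene called higher at 20 weeks, by 0.84 ± 0.18 (adjusted p = 0.0104). It was not called without GFP replicate 2 (adjusted p = 0.0599) or in a fit on those 2 groups alone (0.051). Sptlc2, a subunit of serine palmitoyltransferase, which starts the pathway, was lower by -0.83 ± 0.13 (adjusted p = 0.00139). The 2 other probe sets of Cers4 and the 2 of Sptlc2 had the same sign and were not called. Cers6, Cers4 and Sptlc2 were the 3 called of 17 measured genes of de novo ceramide synthesis at 20 weeks. Beside them, 4.67% of all genes were lower and 3.34% higher.

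B4galt6, which adds galactose to glucosylceramide, was the list gene with the largest difference. It read 7.33, 7.14 and 7.496 in GFP and 5.61, 4.96 and 5.49 in HOXB4 cells at 12 weeks, and 8.36, 8.66 and 7.95 against 5.52, 5.95 and 4.91 at 20 weeks. The differences were -1.97 ± 0.27 (limma adjusted p = 0.00277) and -2.86 ± 0.27 (adjusted p = 2.89e-05), and its 3 other probe sets were called lower at both times. In its list of 14 measured glycosphingolipid genes, 6 were lower at 20 weeks in limma (beside 4.67% of all genes) and 0 higher (1 unadjusted). Among them were the lysosomal hydrolases Gla (-1.45, adjusted p = 0.00297) and Hexa (-1.20, adjusted p = 0.000709) and the ganglioside synthase B4galnt1 (-1.02, adjusted p = 0.00297). The other probe set of Gla had the opposite sign and was not called, and that of B4galnt1 was called lower. The remaining called genes were Galc and Arsa, named after their values were seen. Of the 2 other probe sets of Galc, 1 had the opposite sign and 0 were called. Leaving out 1 array ended the call of Galc for 3 and of Arsa for 4 of the 6 arrays.

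Of 10 genes of sphingomyelin turnover and ceramide transport, 3 were lower at 20 weeks, beside 4.67% of all genes. Smpdl3a, an acid phosphodiesterase related to sphingomyelinase, was lower by -1.95 ± 0.30 (limma adjusted p = 0.00115) and rose between 12 and 20 weeks of GFP by 1.65 (adjusted p = 0.0111). Samd8, a relative of the Sgms enzymes that makes a ceramide phosphoethanolamine, differed by -0.89 (adjusted p = 0.00952), and the transfer protein Cptp by -0.59 (adjusted p = 0.0145). Both lost their call without GFP replicate 2 (adjusted p = 0.0557 for Samd8 and 0.083 for Cptp) and in a fit on those 2 groups alone (0.0905 and 0.0846), and Cptp also without GFP replicate 1 (0.0685). The 2 other probe sets of Samd8 had the same sign and were not called. Of 5 ceramidases, the enzymes that free sphingosine, Asah1 (-0.72, limma adjusted p = 0.00154) and Acer3 (-0.71, adjusted p = 0.018) were lower at 20 weeks. The 3 other probe sets of Acer3 had the same sign, and 1 was called. The Acer3 call was lost without replicate 1 or 2 of GFP (adjusted p = 0.0899 and 0.0846) or of HOXB4 (0.0501 and 0.0529), and in a fit on those 2 groups alone (0.0776). Asah1 was also lower at 12 weeks by -0.54 ± 0.11 (adjusted p = 0.0223), a call lost without any 1 of the 6 arrays, and from 12 to 20 weeks of GFP it rose by 0.72 (adjusted p = 0.00527). In limma 0 of 5 sphingosine 1-phosphate phosphatases and 0 of the 3 other receptors were called at either time. At an unadjusted p under 0.05 there was 1 of each at 12 weeks and 0 at 20 weeks. Without GFP replicate 2 at 20 weeks, 8 of the 54 genes were lower in place of 13, beside 2.44% of all genes.

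**Figure D4:**
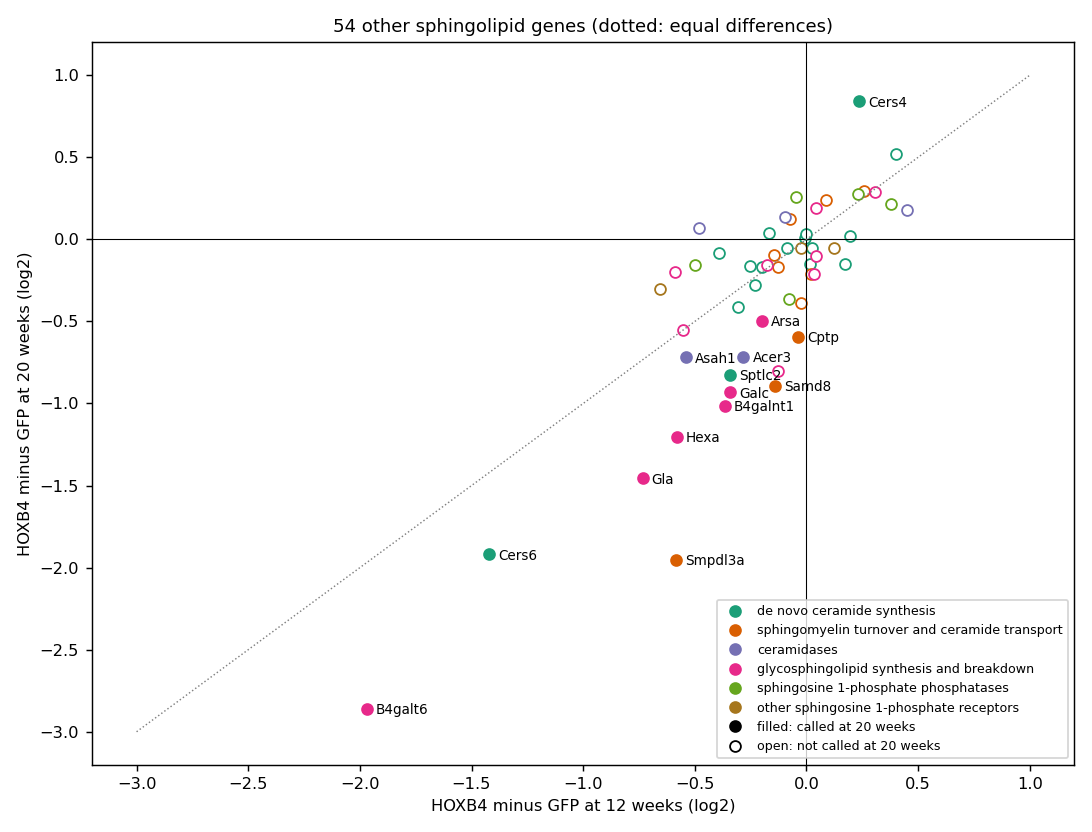
HOXB4 minus GFP difference at 12 weeks (horizontal axis, log2) against that at 20 weeks (vertical axis, log2) for 54 other sphingolipid genes, 1 point a gene, coloured by list; filled points were called at 20 weeks. B4galt6, Cers6 and Smpdl3a lie lowest at 20 weeks, and Cers4 is the filled point above 0.

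Marker genes of other cells also differed between the vectors. Of all genes, 4.67% were called lower and 3.34% higher at 20 weeks, and 1.93% lower and 1.61% higher at 12 weeks. The summed linear signal of 14 granulocyte and neutrophil markers was 32161 to 41298 in GFP and 3380 to 9079 in HOXB4 cells at 20 weeks. There 10 of the 14 were lower in HOXB4 cells, among them Elane (-3.77, limma adjusted p = 0.000211), and the median difference was -2.78. At 12 weeks the sums were 14990 to 16927 in GFP and 10379 to 14426 in HOXB4 cells, but the markers were mixed, with 4 lower, 1 higher and a median difference of 0.70. The sum of 7 monocyte and macrophage markers was 1887 to 2537 in GFP and 593 to 679 in HOXB4 cells at 20 weeks, and 3 of the 7 were lower. At 12 weeks the monocyte sums overlapped, with 701 to 828 in GFP and 706 to 759 in HOXB4 cells, and 0 of the 7 were called in limma (1 higher and 3 lower unadjusted). GFP at 20 weeks was thus the highest group for both marker sums, as it was for Sgms2 and Sgpl1. Sgms2 was chosen for its difference at 20 weeks, so its likeness to the markers there carries no weight. At 12 weeks Sgms2, Sgpl1 and the granulocyte sums were lower in HOXB4 cells without overlap, and the monocyte sums overlapped. The mean log2 signal of the same 14 granulocyte markers overlapped at 12 weeks, with 8.03 to 8.48 in GFP and 8.21 to 8.73 in HOXB4 cells. At an unadjusted p under 0.05 in limma, 5 of them were higher and 5 lower.

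The sum of 10 megakaryocyte and platelet markers was 453 to 695 in GFP and 1839 to 4526 in HOXB4 cells at 20 weeks. There 6 of 10 were higher, beside 3.34% of all genes. It was 1459 to 1945 in GFP and 3533 to 3941 in HOXB4 cells at 12 weeks, where 1 of 10 was higher, beside 1.61% of all genes. Mfsd2b was likewise lowest in GFP at 20 weeks. It was chosen for its difference at that time, so this likeness carries no weight. At 6 weeks of HOXB4 the marker sum (1504 to 2198) overlapped that of GFP at 12 weeks. The brighter Mfsd2b probe set (8.24 to 8.68) there lay above GFP at 12 weeks (7.15 to 7.34). The sum of 8 mast cell and basophil markers was also lowest in GFP at 20 weeks, with 1049 to 1141 against 1548 to 3938 in HOXB4 cells. It was 1740 to 2000 in GFP and 2608 to 2776 in HOXB4 cells at 12 weeks, and 2053 to 3441 at 6 weeks of HOXB4. Of these 8 markers, 3 were higher and 2 lower at 20 weeks, and 1 was higher and 2 lower at 12 weeks. Of 10 erythroid markers 1 was higher at 20 weeks and 0 at 12 weeks (0 unadjusted), and of 8 endothelial markers 0 were called in limma at either time (1 unadjusted at 12 and 3 at 20 weeks, all higher). Of 9 B cell markers 7 were higher at 12 weeks and 2 at 20 weeks (7 unadjusted), and their sums were separate at both times, with 753 to 836 in GFP and 5162 to 7273 in HOXB4 cells at 12 weeks and 1260 to 4767 against 6923 to 11970 at 20 weeks. In a bulk sample a different share of cells of a type and a different amount of RNA per cell cannot be told apart, and the part of these markers in the differences was not tested.

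The genes whose signal ran most alike to each of the chosen genes were ranked by Pearson r over the 15 arrays, among 225 genes whose group means spanned at least 2 log2 units. For Sgms2 these were Dmkn (0.974), Fbp1 (0.973), Gsr (0.965), Hsd11b1 (0.963) and Dstn (0.961). Fbp1, a gluconeogenic enzyme, had means of 5.61 and 8.10 in GFP at 12 and 20 weeks and of 4.33, 3.995 and 3.73 in HOXB4 cells at 6, 12 and 20 weeks. For Mfsd2b they were F2r (0.965), Gng11 (0.961), Stx3 (0.959), Treml1 (0.952) and Ctla2a (0.950). F2r, a thrombin receptor, had means of 7.95 and 6.54 in GFP at 12 and 20 weeks and of 9.20, 9.40 and 8.84 in HOXB4 cells at 6, 12 and 20 weeks. Treml1 is also 1 of the megakaryocyte and platelet markers above. These correlations describe 15 arrays in 5 groups and carry no p. Sgms2 and Mfsd2b were chosen for a difference between groups and the 225 for their span, so the choice itself favoured high r.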

How the data were processed

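Gene expression was measured on 15 arrays of sorted mouse LSK cells, from 20 ng of RNA each, amplified and labelled with NuGEN reagents per the labels' protocols. The authors deposited log2 expression values for 45141 probe sets. Per the submitters' processing notes, the tools were RMA and Partek 6.5. Filters and any further scaling are not given in the sources used here. After 104 control probe sets were left out, 45037 were tested. Symbols came from the platform annotation, updated through the gene identifier. Of the tested probe sets 28898 had 1 symbol, 551 several and 15588 were not listed.

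A mean per group was fitted to all 15 arrays with limma 3.58.1 in R 4.3.3 (lmFit, contrasts.fit, eBayes), with 7 comparisons, two-sided tests and Benjamini-Hochberg adjustment over 45037 probe sets. The fit was tested on simulated data. The number of arrays limits the precision. All member probe sets are named. Of the other sphingolipid genes, up to 4 called ones per list with the smallest p are named, and for Sgms2 and Mfsd2b the 5 most alike genes, leaving out predicted genes. The members and lists were chosen with earlier results of these data known. Alternatives were other samples in the fit, probe set choice, a filter on dim probe sets, normalization, variance moderation, weights for the arrays, a block on the replicate number and leaving out each array.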

Additional observations from a re-analysis of the deposited data

How the results depend on the processing

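Of 1832 recomputed differences of members and called list genes, 1674 kept their direction and their side of the threshold (or, where untested, moved by under 1 SD), 52 lost and 23 gained a call, 7 untested ones moved by over 1 SD, and 76 changed sign. None of the 76 was called under the alternative, and 73 started from a difference under its standard error. Members called at 12 weeks numbered 2 (beside 3.26% of all probe sets), and 7 in a fit on the 2 groups alone (11.1%). They numbered 5 with array weights (13.1%), 1 with quantile normalization (2.29%) and 0 to 1 leaving out an array (0.686% to 1.77%). At 20 weeks they numbered 2 (6.75%), and 1 in a fit on the 2 groups alone (2.64%). They numbered 1 with the brightest probe set per gene (8.95%), 4 with array weights (8.91%) and 0 to 3 leaving out an array (3.28% to 7.07%). Other sphingolipid genes called lower numbered 3 of 54 at 12 weeks (beside 1.93% of all genes), and 9 in a fit on the 2 groups alone (7.46%) and 10 with array weights (8.37%). They numbered 13 at 20 weeks (4.67%), and 8 to 14 leaving out an array (2.44% to 5.11%). These list alternatives were chosen after seeing the data. Between 6 and 12 weeks of HOXB4, 1 member was called with quantile normalization (3.12%) and 0 to 1 leaving out an array (0.273% to 5.78%). Between 12 and 20 weeks it was 0 to 1 leaving out an array (0.0289% to 0.917%), and between 6 and 20 weeks 1 to 2 (1.86% to 5.46%). From 6 to 20 weeks it was 0 in the fit on 2 groups (0.0155%), with the brightest probe sets (4.66%) or with array weights (0.895%). The main fit there called 3.77% of all probe sets, so a count of 0 under few calls says little about the members. In GFP cells over time 3 were called with array weights, where 7.52% of all probe sets were called in place of 1.54%. With the replicate block, members called numbered 2 at 12 weeks (2.58%), 2 at 20 weeks (6.18%) and 1 between 6 and 20 weeks (3.08%). List genes lower then numbered 12 at 20 weeks (beside 4.36% of all genes), where Arsa lost its call (limma adjusted p = 0.0513). No pairing of the arrays by number was seen, though a weak one could be missed with 3 arrays per group. The deviations of same-numbered arrays correlated between -0.15 and 0.11, and those of other-numbered arrays between -0.16 and 0.21. Of 15 arrays, 0 correlated best with their own number. The filter on dim probe sets removed both probe sets of Sgms2 and the dimmer one of Sphk1 (1420566_PM_at). Over all probe sets at 12 weeks, 836 were higher and 631 lower, against 721 and 782 with arrays centred on their median.

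Signs changed for these differences, as ranges leaving out an array. At 12 weeks they were Sphk2 -0.10 to 0.12, Sgms1 -0.16 to 0.15 and Sphk1 -0.13 to 0.055. At 20 weeks they were Sphk1 -0.032 to 0.094 and -0.17 to 0.091, and Sgms1 -0.098 to 0.65. For the difference between both effects they were Sphk2 -0.17 to 0.078, Sgms1 -0.10 to 0.65 and Sphk1 -0.15 to 0.11. From 6 to 12 weeks of HOXB4 they were Sgpl1 -0.094 to 0.41, Sphk2 -0.096 to 0.32, Sphk1 -0.12 to 0.089 and -0.15 to 0.15, Sgms1 -0.099 to 0.16, Sgms2 -0.029 to 0.18 and Spns2 -0.22 to 0.26. From 12 to 20 weeks they were Sphk2 -0.027 to 0.17, Sgms1 -0.0013 to 0.58 and -0.55 to 0.20, and Spns2 -0.13 to 0.14. From 6 to 20 weeks they were Sphk2 -0.021 to 0.40, S1pr1 -0.18 to 0.083, Sgms1 -0.19 to 0.56 and Spns2 -0.21 to 0.27. In GFP cells over time they were Sphk2 -0.0032 to 0.25 and -0.17 to 0.12, S1pr1 -0.54 to 0.13 and S1pr2 -0.13 to 0.29. With centring, signs changed at 12 weeks for Sphk2 (-0.021) and Sgms1 (-0.039), at 20 weeks for Sphk1 (-0.0063), from 6 to 12 weeks for Sphk1 (0.016 and 0.031) and from 12 to 20 weeks for Spns2 (-0.0013). With quantile normalization they changed for Sphk1 at 20 weeks (-0.018) and from 6 to 12 weeks (0.025 and 0.028), for Spns2 from 6 to 12 (-0.044) and 6 to 20 weeks (-0.034), and for Sphk2 in GFP cells (-0.0023). With array weights they changed for Sgms1 at 12 weeks (-0.014), Sphk1 between both effects (0.016), Spns2 from 12 to 20 weeks (-0.048) and Sphk2 in GFP cells (-0.033). The cause was not tested.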
